A study of Rattus norvegicus with 24 samples.

Results

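Genes of the primary cilium and of the ciliopathies were followed in the kidneys of PKD/Mhm (Cy/+) rats, a line that is heterozygous for a missense allele of Anks6 and develops cystic kidneys. The genes were 51 named members of 8 roles, namely both intraflagellar transport complexes (IFT-B and IFT-A), the ciliary motors, the BBSome and its chaperonin, the transition zone, the basal body and the small GTPases of the cilium. Of these, 43 had a row in the deposited tables of 17334 genes, and all 43 were among the 12778 genes tested. Ift140, Kif7, Kif17, Bbs9, Bbs12, Tctn3, Cc2d2a and Cep164 were not analysed here. Left kidney RNA was sequenced from 24 male rats aged 8 months, with 6 animals in each of 4 groups. The animals called Ctrl were untreated PKD/Mhm (Cy/+) rats. The CoCM animals received conditioned medium, collected from a joint culture of ABCB5+ stromal cells of human skin and stimulated macrophages of the THP-1 line. The remaining rats were given the human cells themselves, injected into the peritoneum (i.p. ABCB5+) or into a vein (i.v. ABCB5+). Treatment was given monthly over 6 months. The sources differ on whether the medium was given i.p. or i.v. Every animal carried the Cy allele, the affected rats had been recognised by palpation of the abdomen, and no rat without the allele was analysed here.

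The primary cilium is a single, non-motile, microtubule-based projection that most epithelial cells of the renal tubule carry on their luminal side. Kinesin-2 motors move IFT-B trains with their cargo towards the tip, the dynein-2 motor returns them with IFT-A, the BBSome ferries membrane proteins in and out, and the transition zone at the base acts as a gate. Inherited defects in these genes cause ciliopathies such as Bardet-Biedl, Joubert and Meckel syndromes and nephronophthisis, in many of which the kidney becomes cystic or fibrotic, and the product of Anks6 is itself a protein of the cilium.

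Total counts per animal ranged from 9304601 to 14125442, and the smallest count of any member in any animal was 84. Labels number the Ctrl rats between 1 and 24 and the treated rats between 26 and 43, so the order of the animals and the treatment cannot be told apart in any comparison with Ctrl. On the first principal component of log2 CPM (TMM-scaled counts relative to library size), 4 animals stood apart from the rest. These were CoCM 39, i.p. ABCB5+ 38, i.v. ABCB5+ 36 and i.v. ABCB5+ 37, with scores from 80.8 to 97.4, against −53.0 to 11.5 in the other 20. For members named by their edgeR p-value, and for Ttc21b, Bbs10, B9d2 and Mks1, log2 fold changes are also given without these 4 animals.

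Ciliary genes were expressed at middling levels in the cystic kidney, and the levels of its members were widely spread within most roles. Levels are given as TPM, a transcript abundance that is scaled to transcript length and so allows genes to be compared. The median over the 43 members was 16.8 TPM in Ctrl, against 20.4 TPM over the 12778 genes tested. In Ctrl, 37 members lay between 5 and 50 TPM, 3 lay above 50 TPM (Arl3, Ift20 and Ift46) and 3 lay under 5 TPM (Dync2h1, Rpgrip1l and Cep290).

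The IFT-B complex was complete in the tables, with 11 of 11 members. Its highest member was Ift20, which also carries cargo from the Golgi to the cilium, with a lowest, median and highest level of 76.2, 89.4 and 97.3 TPM in Ctrl. Ift172, a large peripheral subunit of the complex, was its lowest member at 7.38, 9.55 and 12.2 TPM. These 2 subunits did not overlap in any animal. Of the IFT-A complex, 5 of 6 members were found. Ift43, a small subunit, had 31, 39.7 and 45.9 TPM in Ctrl, and Wdr19, a core subunit also known as Ift144, had 3.42, 6.41 and 11.1 TPM. Wdr19 thus varied about as much between animals of the same group as many members differed from each other.

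Of the motors, Kif3b, a motor subunit of kinesin-2, was the highest with 12.8, 15.0 and 16.7 TPM in Ctrl. Dync2h1, the heavy chain of the returning dynein-2 motor, was the lowest with 2.77, 3.69 and 5.41 TPM. The BBSome members lay closer together. Bbs2 was the highest at 18.2, 26.2 and 31.95 TPM and Ttc8, also known as Bbs8, the lowest at 12.3, 14.09 and 20.1 TPM, so that the levels of both genes overlapped between animals. The single chaperonin member, Bbs10, which helps to assemble the BBSome, had a median of 9.77 TPM.

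The transition zone was the largest class, with 13 of 15 members found. Tmem216, a membrane protein mutated in Joubert and Meckel syndromes, was its highest member with 38.4, 44.1 and 49.1 TPM in Ctrl. Cep290, the large protein that links the membrane of the transition zone to its microtubules, was its lowest with 1.89, 2.29 and 3.18 TPM. Ofd1, a protein of the basal body and the centriolar satellites, had a median of 8.72 TPM. Among the GTPases, Arl3, which releases lipid-modified cargo inside the cilium, was the highest of all members with 170.1, 183 and 193 TPM in Ctrl. Arl13b, the activator of Arl3 in the cilium, had 9.19, 10.2 and 14.0 TPM.

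**Figure D1:**
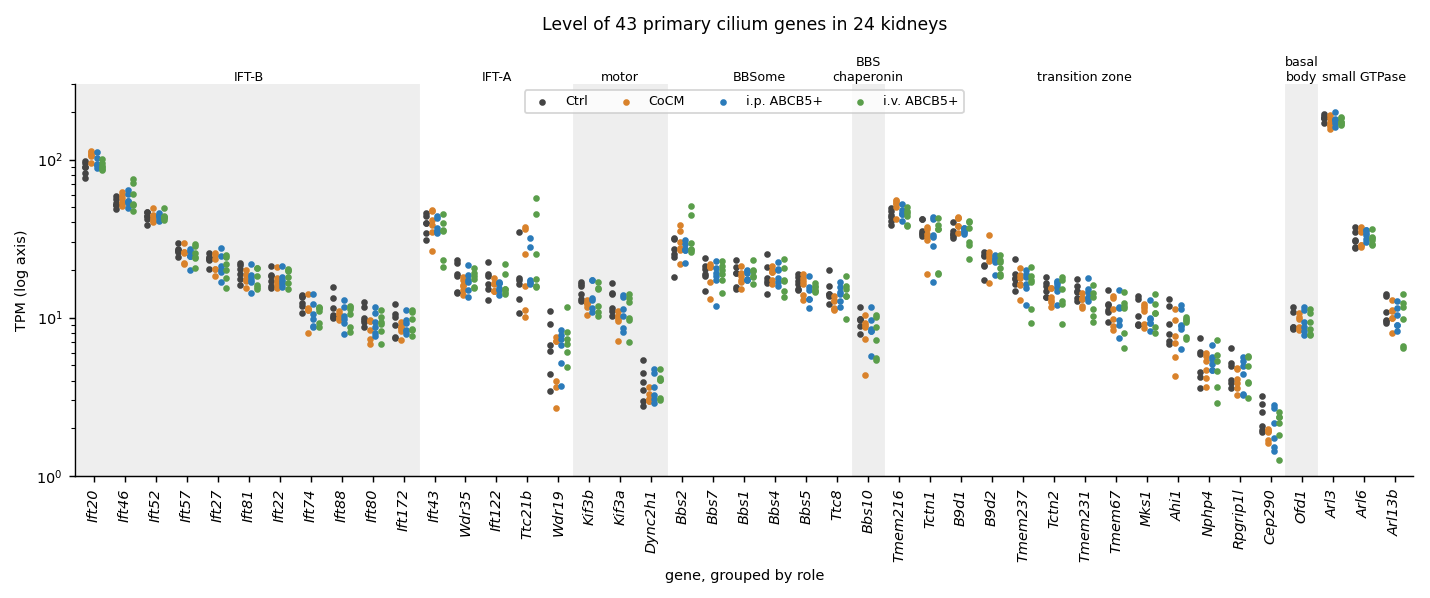
TPM on a log axis of the 43 cilium genes, grouped by role and ordered within a role by the median in Ctrl, with 1 point per animal and a colour per group (n = 6 each). Arl3 and Ift20 lie highest and Cep290 lowest, and the 4 groups overlap widely at nearly every gene.

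The levels of most members were even between animals. The biological coefficient of variation (BCV), which edgeR estimates for each gene as the relative spread between animals of a group beyond counting error, had a median of 0.138 over the members. It was 0.206 over all genes tested, and 0.167 over the 6950 genes whose mean log2 CPM lay in the same range as that of the members. A BCV under 0.2 was found for 38 of 43 members (88.4%), against 48.1% of all genes tested. The steadiest members were Ift88, an IFT-B subunit whose loss gives cystic kidneys in the mouse, at 0.0935, and Ift81, which binds tubulin, at 0.0944. At the other end, Ttc21b reached 0.49, Wdr19 0.341, Bbs2 0.272, Ahi1 0.26 and Tctn1 0.2. Over the 24 animals the highest level was 6.34 times the lowest for Ttc21b, 4.59 times for Wdr19, 3.31 times for Bbs2 and 3.11 times for Ahi1 in CPM, whereas for Ift81 it was 1.32 times. Ttc21b, an IFT-A subunit also known as Ift139, and Ahi1, a Joubert syndrome gene, are described because their spread was seen to be wide.

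A sequence feature that was not used to choose the members was more frequent in their promoters than in those of all genes. RFX transcription factors, which regulate many ciliary genes in animals, bind a site called the X-box that is built from a pair of facing arms, of which GTTGCC is a common form. RefSeq promoters of the GRCr8 assembly, 250 bases before to 50 bases after the annotated start, were at hand for 35 of the 43 members. The letters GTTGCC occurred on either strand in 18 of these 35 promoters (51.4%), against 12.2% of 27457 promoters of all genes and 12.7% of 10323 promoters of genes tested here. A full X-box was matched in 3 of 35 (8.57%), those of Ahi1, Tctn1 and Wdr35, against 1.47% of all promoters and 1.26% of those of genes tested. The GC content was 59.7% in the members' promoters and 60.3% in those of genes tested. Of the 22 occurrences of GTTGCC, 11 lay within 100 bases before the start and 8 after it. The motif CCGGAAG, a binding sequence of ETS factors, was found in 22.9% of the members' promoters and 16.4% of those of genes tested, and the CCAAT box in 48.6% and 37.4%. A match is a description of letters, and binding was not measured.

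The stretches below show the motif in 60 bases upstream of the start for Kif3a and Tmem231, whose levels are among those described further on, for Bbs5, Mks1, Tctn2 and Ift88, in which GTTGCC lies between 32 and 54 bases before the start, and for Ahi1, which holds a full X-box of 14 bases. Capitals mark GTTGCC or the X-box, and GGCAAC is GTTGCC read on the other strand. An X-box can contain GTTGCC, so the motifs may overlap. Sequences are from RefSeq, GRCr8, and run 5′ to 3′ on the strand of the gene. The positions are chr10:38226615-38226674 on the plus strand for Kif3a, chr19:56813516-56813575 on the minus strand for Tmem231, chr3:74818574-74818633 on the plus strand for Bbs5, chr10:73153138-73153197 on the plus strand for Mks1, chr12:37668045-37668104 on the minus strand for Tctn2, chr15:35688926-35688985 on the plus strand for Ift88 and chr1:17581921-17581980 on the plus strand for Ahi1.
Kif3a: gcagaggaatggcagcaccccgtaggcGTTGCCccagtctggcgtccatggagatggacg
Tmem231: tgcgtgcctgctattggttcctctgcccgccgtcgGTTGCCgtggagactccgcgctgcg
Bbs5: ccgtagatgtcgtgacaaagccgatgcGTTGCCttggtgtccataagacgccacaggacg
Mks1: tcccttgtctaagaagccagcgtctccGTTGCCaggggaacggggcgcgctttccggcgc
Tctn2: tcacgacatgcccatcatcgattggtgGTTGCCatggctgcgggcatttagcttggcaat
Ift88: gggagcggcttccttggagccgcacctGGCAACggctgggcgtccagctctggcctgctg
Ahi1: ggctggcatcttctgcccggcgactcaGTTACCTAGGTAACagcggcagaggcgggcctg

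Whether treatment was accompanied by a change of ciliary transcripts was then asked by comparing each treated group with Ctrl and the 2 routes of cell injection with each other. No member reached an adjusted p-value under 0.05 in the edgeR quasi-likelihood test with Benjamini-Hochberg adjustment. The count was 0 of 43 for CoCM against Ctrl (0.00783% of all genes tested were called), and 0 of 43 for i.p. ABCB5+ against Ctrl, i.v. ABCB5+ against Ctrl, i.p. against i.v. and the F-test over the 4 groups (0.0% of all genes called in each). The smallest adjusted p-value of a member was 0.224, 0.978, 0.673, 1 and 0.817 in these 5 tests. DESeq2 called 0 members in each, among 78 genes in all for CoCM against Ctrl and 10 over the 4 groups, and limma on log2(TPM + 0.1) called 0 members among 0 genes. Limma voom with sample quality weights called Ift20 and Tmem216 in CoCM against Ctrl, with adjusted p-values of 0.0303 and 0.0381, among 183 genes in all.

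The fold changes of the members were small. In CoCM against Ctrl the median log2 fold change of the 43 members was 0.02, against 0.01 for all genes tested, and the extremes were −0.30 for Kif3a and 0.43 for Ttc21b. Log2 fold changes between −0.25 and 0.25 were found for 36 members (83.7%), against 65.3% of all genes. In i.p. ABCB5+ against Ctrl, 42 members (97.7%) lay within this range, against 77.1% of all genes. In i.v. ABCB5+ against Ctrl it was 39 members (90.7%) against 68.1%, and between the 2 cell routes 40 members (93.0%) against 81.9%. The mean of the members' centred log2 CPM ranged from −0.09 to 0.11 over the 24 animals, with means of −0.01 ± 0.07 for Ctrl, 0.01 ± 0.07 for CoCM, −0.01 ± 0.03 for the i.p. group and 0.01 ± 0.07 for the i.v. group (SD, n = 6). In whole kidney RNA, fewer ciliated cells and less ciliary RNA per cell cannot be told apart.

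At an unadjusted p-value under 0.05, without correction for the number of genes, 6 of 43 members (14.0%) differed in CoCM against Ctrl, as did 11.9% of all genes tested. These were 3 that were higher (Ift20, Tmem216 and B9d1) and 3 that were lower (Kif3a, Kif3b and Cep290), with 5.96% of all genes in each direction. In i.p. ABCB5+ against Ctrl it was 0 members, with 1.77% of all genes, of which 1.26% higher and 0.509% lower. In i.v. ABCB5+ against Ctrl it was 2 members with 5.78% of all genes, Bbs2 among 4.44% that were higher and Tmem231 among 1.34% that were lower. Between the routes it was 1 member with 2.14% of all genes, Tmem231 among 0.689% that were higher with i.p. injection (1.46% were lower). Over the 4 groups it was 3 members (Ift20, Tmem216 and B9d1), with 4.71% of all genes.

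These shares lie near or under those of all genes except over the 4 groups, where 6.98% of the members compare with 4.71%. Complete separation of 2 groups was seen for B9d1 and Kif3b in CoCM against Ctrl, described with their values, and for 0 members elsewhere. Of all genes, 0.0% were wholly higher and 0.047% wholly lower in i.p. ABCB5+ than in Ctrl, 0.0548% in each direction in i.v. ABCB5+ and 0.0313% in each direction between the routes. None of the genes described next passed the adjusted test.

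**Figure D2:**
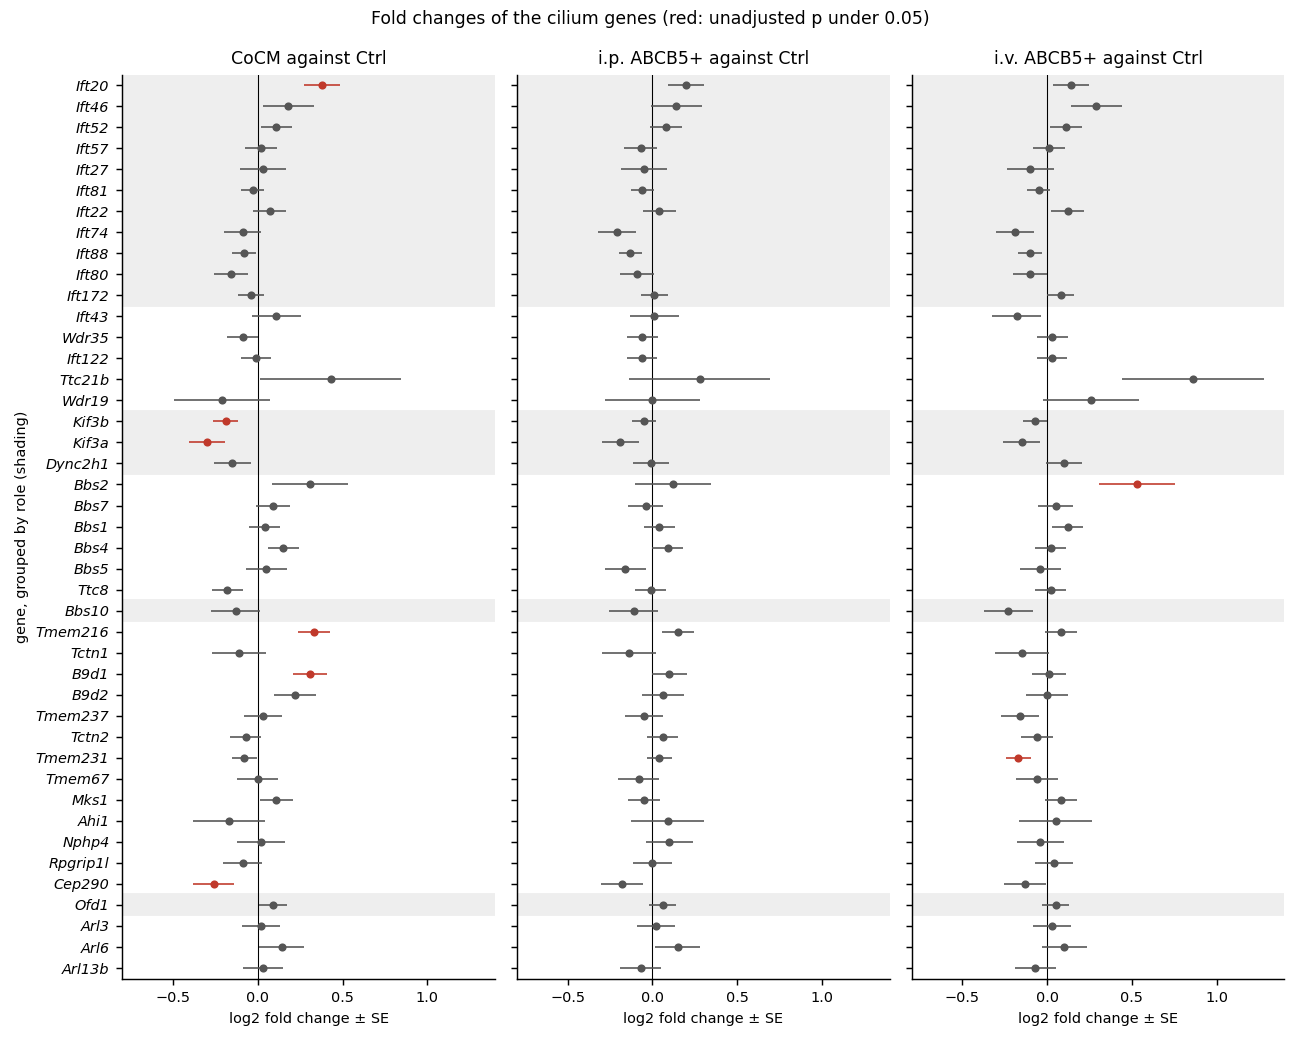
Log2 fold change with its standard error for the 43 members in each treated group against Ctrl, grouped by role, with members at an unadjusted p-value under 0.05 in red. Members lie around 0 in all 3 comparisons, from −0.30 to 0.43 in CoCM, and the wide bars are those of Ttc21b, Wdr19, Bbs2 and Ahi1.

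Among the 11 IFT-B members, Ift20 alone passed the unadjusted threshold of the edgeR test in CoCM. Its lowest, median and highest level was 52.3, 61.0 and 69.4 CPM in Ctrl and 69.2, 79.5 and 91.6 CPM in CoCM. The CoCM animals were the higher group, 5 of 6 of them above every Ctrl animal, and the groups touched at 1 animal. On the log2 scale the fold change was 0.38 ± 0.11 (SE, n = 6 per group, adjusted p = 0.224, edgeR quasi-likelihood test with Benjamini-Hochberg adjustment), and a two-sided exact permutation test of this gene gave an unadjusted p of 0.00433. The median was 66.1 CPM in i.p. ABCB5+ and 67.7 CPM in i.v. ABCB5+, where the animals ranged across the levels of both other groups. The other 10 members had log2 fold changes from −0.16 to 0.18 in CoCM, with Ift80, a peripheral subunit, at the low end and Ift46 at the high end. Ift46, a core subunit, lay above every Ctrl animal in 5 of 6 CoCM animals, as Ift20 did, and had the same exact permutation p of 0.00433, whereas its unadjusted edgeR p was 0.243 with a log2 fold change of 0.18 ± 0.15 (SE, n = 6 per group). Ift172, the lowest member, had medians of 9.55, 8.57, 8.79 and 9.13 TPM in Ctrl, CoCM and the i.p. and i.v. groups.

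The 5 IFT-A members did not pass the unadjusted threshold of the edgeR test in any comparison. Ttc21b had the largest fold change of all members in i.v. ABCB5+ against Ctrl, at 0.86 on the log2 scale, and was also the most variable. Its lowest, median and highest level was 30.1, 40.7 and 86.1 CPM in Ctrl and 38.8, 50.8 and 168 CPM in i.v. ABCB5+. Most animals of both groups overlapped, and the 2 highest i.v. animals were those that stood apart on the first component. Without the 4 animals apart the log2 fold change of Ttc21b was −0.02 in i.v. ABCB5+, and in CoCM it was 0.17 in place of 0.43. Wdr19 had 11.9, 19.5 and 34.2 CPM in Ctrl, and its medians were 17.7, 22.6 and 23.3 CPM in CoCM, i.p. and i.v. ABCB5+. Ift43 had medians of 18.4 CPM in Ctrl and 20.8, 17.97 and 16.3 CPM in the treated groups in the same order.

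Both motor subunits of the heterotrimeric kinesin-2, which drives trains out along the cilium, were lower in CoCM at an unadjusted p-value. Kif3a had a lowest, median and highest level of 17.1, 19.9 and 23.4 CPM in Ctrl and 13.2, 16.6 and 18.6 CPM in CoCM. The groups overlapped, with 5 of 6 CoCM animals below every Ctrl animal. This gave a log2 fold change of −0.30 ± 0.11 (SE, n = 6 per group, adjusted p = 0.338, edgeR quasi-likelihood test with Benjamini-Hochberg adjustment), and the two-sided exact permutation test gave an unadjusted p of 0.00649. Kif3b had 55.6, 60.7 and 64.5 CPM in Ctrl and 49.96, 53.4 and 54.1 CPM in CoCM. All CoCM animals lay below all Ctrl animals, as was found for 0.524% of all genes tested. The fitted log2 fold change was −0.19 ± 0.07 (SE, n = 6 per group, adjusted p = 0.353, same edgeR test), and the exact permutation p was 0.00216, the smallest that the divisions of 12 animals can give. In the cell-treated groups (i.p., then i.v.) the medians were 57.3 and 58.3 CPM for Kif3b and 17.9 and 18.6 CPM for Kif3a, and for both genes these animals overlapped with Ctrl. Dync2h1 of the returning motor had medians of 35.6, 33.4, 36.3 and 40.02 CPM in Ctrl, CoCM and the i.p. and i.v. groups, and did not pass the threshold of the edgeR test in any of them.

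In the transition zone, 2 members were higher and 1 was lower in CoCM at an unadjusted p-value, of 13 tested. Tmem216 had a lowest, median and highest level of 35.8, 36.8 and 36.96 CPM in Ctrl and 36.9, 47.3 and 53.0 CPM in CoCM. The Ctrl animals were very close together, and 5 of 6 CoCM animals lay above all of them. The log2 fold change was 0.33 ± 0.10 (SE, n = 6 per group, adjusted p = 0.234, edgeR quasi-likelihood test with Benjamini-Hochberg adjustment), and the two-sided exact permutation test gave an unadjusted p of 0.00866. B9d1, a B9-domain protein of the Meckel module, had 13.5, 15.99 and 17.1 CPM in Ctrl and 17.7, 19.4 and 21.8 CPM in CoCM. Every CoCM animal lay above every Ctrl animal, as was found for 0.853% of all genes tested. On the log2 scale the fold change was 0.31 ± 0.10 (SE, n = 6 per group, adjusted p = 0.319, same edgeR test) with an exact permutation p of 0.00216. B9d1 shares part of its locus with Epn2 in GRCr8, Cep290 with Rlig1 and Ift46 with Arcn1. Reads of such pairs may not be told apart because the handling of strand was not stated. Of the 43 members, 21 overlap another gene in GRCr8, 11 of them a protein coding gene. Bbs2 and Ttc21b overlap only genes that are not protein coding.

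Cep290 had a lowest, median and highest level of 12.3, 13.8 and 17.4 CPM in Ctrl and 10.6, 12.3 and 12.9 CPM in CoCM. The groups overlapped, with 3 of 6 CoCM animals below the Ctrl range. This gave a log2 fold change of −0.26 ± 0.12 (SE, n = 6 per group, adjusted p = 0.407, edgeR quasi-likelihood test with Benjamini-Hochberg adjustment), and the exact permutation p was 0.0238. B9d2, the partner of B9d1 in the same module, had a log2 fold change of 0.22 and Mks1, the third B9-domain protein, of 0.11, and neither passed the unadjusted threshold. In the cell-treated groups the medians of Tmem216 were 40.03 CPM with i.p. and 39.8 CPM with i.v. ABCB5+, and those of B9d1 were 17.48 and 17.1 CPM. These animals spread on both sides of the Ctrl range for Tmem216.

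Tmem231, a membrane protein of the transition zone that helps to keep other proteins out of the cilium, was the only member at an unadjusted p-value under 0.05 between the cell routes. Its lowest, median and highest level was 28.1, 29.03 and 32.2 CPM in i.p. ABCB5+, 22.2, 25.6 and 29.8 CPM in i.v. ABCB5+ and 26.6, 28.8 and 31.8 CPM in Ctrl. The i.v. animals were the lower group but overlapped with both others. The log2 fold change of i.p. against i.v. was 0.20 ± 0.07 (SE, n = 6 per group, adjusted p = 1, edgeR quasi-likelihood test with Benjamini-Hochberg adjustment, exact permutation p = 0.0195), and that of i.v. against Ctrl was −0.17 ± 0.07 (adjusted p = 0.673, exact permutation p = 0.0563). Without the 4 animals apart these values were 0.14 and −0.13, and neither kept an unadjusted p-value under 0.05.

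Of the 6 BBSome members, Bbs2 was higher in i.v. ABCB5+ at an unadjusted p-value of the edgeR test, and by that test the other 5 passed in no comparison. Bbs2, a subunit of the BBSome head, had a lowest, median and highest level of 36.4, 48.4 and 56.8 CPM in Ctrl and 44.8, 50.6 and 120.4 CPM in i.v. ABCB5+. The 2 highest i.v. animals, 36 and 37, had 94.1 and 120.4 CPM, and the other 4 lay within the Ctrl range. The fitted log2 fold change was 0.53 ± 0.22 (SE, n = 6 per group, adjusted p = 0.673, edgeR quasi-likelihood test with Benjamini-Hochberg adjustment), and the exact permutation test gave an unadjusted p of 0.175. Without the 4 animals apart the log2 fold change was 0.03. Ttc8 had medians of 15.4, 14.2, 16.1 and 15.9 CPM in Ctrl, CoCM and the i.p. and i.v. groups. In CoCM against Ctrl its log2 fold change was −0.18 ± 0.09 (SE, n = 6 per group), with an unadjusted edgeR p of 0.0615 and an exact permutation p of 0.0433. Bbs10 of the chaperonin had an exact permutation p of 0.0476 and an unadjusted edgeR p of 0.121 for i.v. injection against Ctrl. Its log2 fold change there was −0.23 ± 0.14 (SE, n = 6 per group), and −0.12 without the 4 animals apart. The GTPase Arl3 had medians of 79.6, 77.4, 77.7 and 73.8 CPM and Arl13b of 26.8, 28.3, 25.6 and 26.8 CPM in the same order, and the 4 groups overlapped for all 3 genes.

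Without the 4 animals apart, the log2 fold changes of CoCM against Ctrl were 0.33 for Ift20, 0.28 for Tmem216, 0.32 for B9d1, −0.26 for Kif3a, −0.19 for Kif3b and −0.26 for Cep290, in the same direction as with them.

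**Figure D3:**
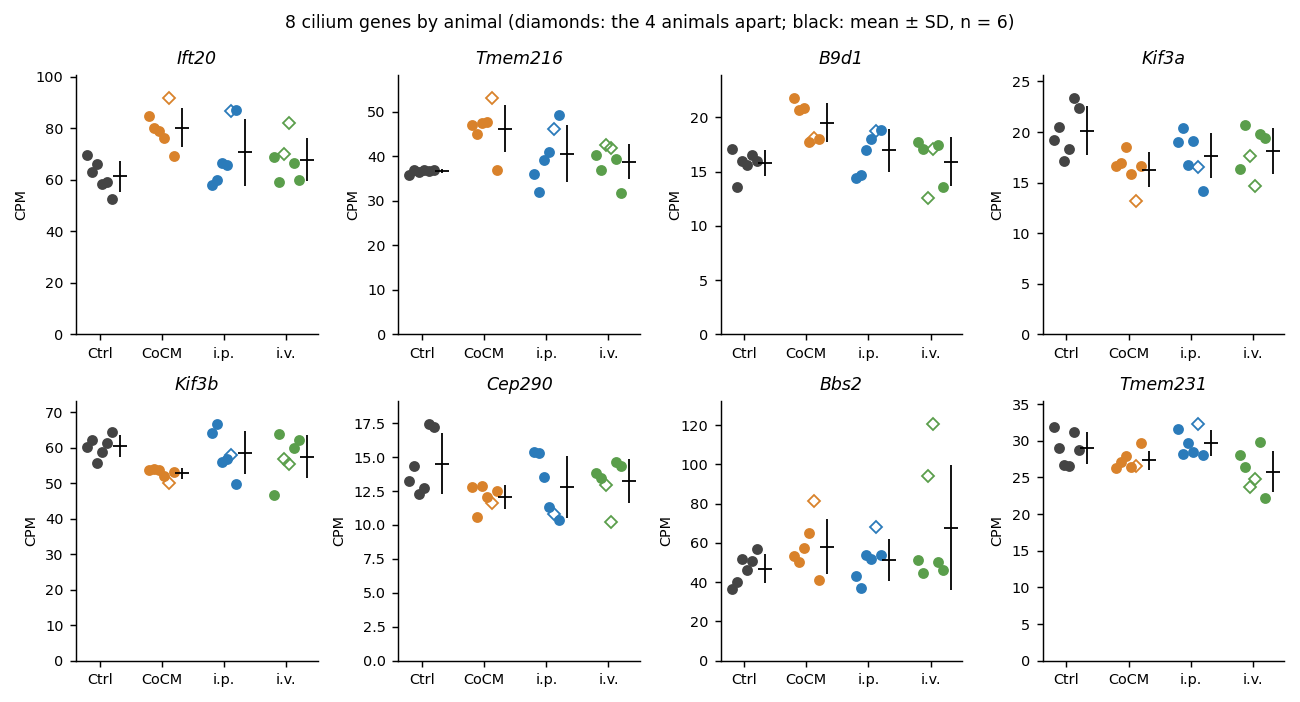
CPM per animal from an axis starting at 0 for the 8 members at an unadjusted p-value under 0.05 in any comparison of 2 groups, with the mean ± SD (n = 6) beside each group and open diamonds for the 4 animals apart on component 1. CoCM lies wholly above Ctrl for B9d1 and wholly below it for Kif3b, and the spread of Bbs2 in i.v. ABCB5+ comes with its 2 diamonds at 94.1 and 120.4 CPM.

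The direction of a member in CoCM went with the length of its transcript. Count per TPM, which is larger for longer transcripts, was used as a relative length. Over the 43 members, Spearman's rho between this length and the log2 fold change of CoCM against Ctrl was −0.553, and it was −0.317 over the 12778 genes tested, as a description across genes, which share the same libraries. The median log2 fold change of all genes was 0.12 in the shortest quartile and −0.12 in the longest. All 3 members that were higher, Ift20, Tmem216 and B9d1, were among the 10 members in the shortest quartile. Of the 3 that were lower, Kif3b and Cep290 were among the 15 members in the longest quartile and Kif3a among the 14 in the third quartile. The same correlation coefficient over the members and over all genes was −0.291 and −0.193 in i.p. ABCB5+ against Ctrl, 0.00649 and −0.0944 in i.v. ABCB5+ against Ctrl, and −0.3002 and −0.0882 for i.p. against i.v. injection. The part of transcript length in these differences was not tested.

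**Figure D4:**
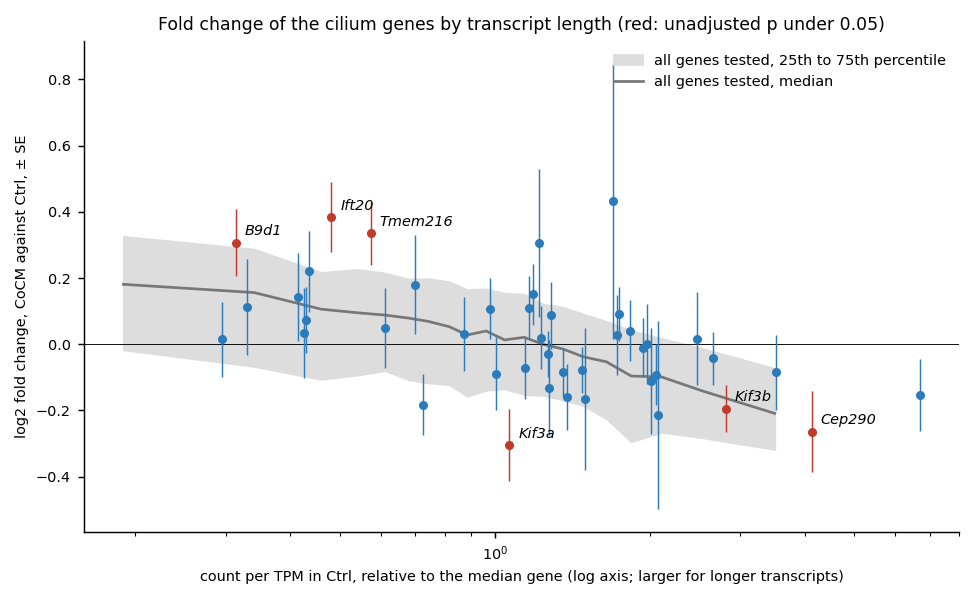
Log2 fold change of CoCM against Ctrl with its standard error for the 43 members (points, red at an unadjusted p-value under 0.05) against count per TPM relative to the median gene on a log axis, with the median and the 25th to 75th percentiles of all genes tested in 20 bins of length. The median of all genes falls from 0.18 in the shortest bin to −0.21 in the longest, Ift20, Tmem216 and B9d1 lie above it, and Kif3a lies below it near the middle.

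Some markers of other cell types passed an unadjusted p-value under 0.05 in CoCM, as did 5.96% of all genes tested in each direction. Among thick ascending limb, distal convoluted tubule, intercalated cell, injured tubule, fibroblast, macrophage and lymphocyte markers, 0 passed in either direction. Of 8 proliferation markers, 1 was higher (Ccnb1). Of 7 endothelial markers, 3 were lower, and their summed level ranged from 544 to 640 CPM in Ctrl and from 347 to 632 CPM in CoCM. Of 8 proximal tubule markers 2 were lower (2126 to 7130 CPM in Ctrl, 2805 to 9886 CPM in CoCM), and of 7 podocyte markers 1 was lower (710 to 1124 CPM in Ctrl and 435 to 1301 CPM in CoCM). Of 6 principal cell markers 1 was higher, with 1349 to 2938 CPM in Ctrl and 1546 to 3390 CPM in CoCM. Of 10 genes of motile cilia, which mark multiciliated cells and are not part of the primary cilium, 2 were higher in CoCM, Dnai2 at 0.58 and Zmynd10 at 0.48 on the log2 scale, and their sum over the 14 genes found ranged from 68.1 to 94.4 CPM in Ctrl and from 74.4 to 101.7 CPM in CoCM. None of the genes in these lists was at 0 in every animal, and the part of cell type shares in the values of the members was not tested.

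The 4 animals that stood apart also differed in some ciliary genes, chosen for description after their values were seen. All 4 lay outside the other 20 animals for 6 of 43 members (14.0%), against 24.2% of all genes tested. Below the others were Bbs10, Tctn1 and Tmem237, and above them Arl6, Bbs2 and Ift52. Tctn1, a tectonic of the transition zone, had 65.2 CPM in CoCM 39, 60.1 CPM in i.p. ABCB5+ 38, 65.6 CPM in i.v. ABCB5+ 36 and 72.9 CPM in i.v. ABCB5+ 37. In the other animals it ranged from 93.3 to 122.5 CPM, the widest gap of the members that were lower.

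Bbs10 had 9.56, 13.2, 11.7 and 13.7 CPM in the same 4 animals and from 14.0 to 20.3 CPM in the others. Tmem237, a further transition zone protein, had 19.3, 18.8, 16.8 and 15.6 CPM against 19.98 to 28.4 CPM. The highest of the 4 lay close to the range of the other animals for both genes, and the lowest lay well below it. Ift52, an IFT-B core subunit, had 81.8, 80.5, 73.4 and 80.5 CPM against 56.7 to 67.9 CPM, and Arl6, the GTPase that brings the BBSome to membranes, had 26.3, 26.4, 25.5 and 25.3 CPM against 15.7 to 23.7 CPM. Bbs2 had 81.5, 68.1, 94.1 and 120.4 CPM against 36.4 to 64.9 CPM. Ttc21b reached 110.6, 50.6, 168 and 150.5 CPM in these animals and from 26.5 to 93.2 CPM in the others, so that 3 of the 4 were above the rest. Tctn1 shares part of its locus with Hvcn1 and Tmem237 with Mpp4.

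In the same 4 animals the summed level of 9 injured tubule markers ranged from 1375 to 1642 CPM, against 8159 to 15831 CPM in the other 20. The sum of 8 macrophage markers was 148 to 499 CPM against 1071 to 2847 CPM, and that of 8 proximal tubule markers 8543 to 13650 CPM against 2126 to 7564 CPM. These animals thus held lower levels of injury and macrophage markers and higher levels of proximal tubule markers than the rest, without overlap. The part of these differences in the values of the ciliary genes was not tested.

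**Figure D5:**
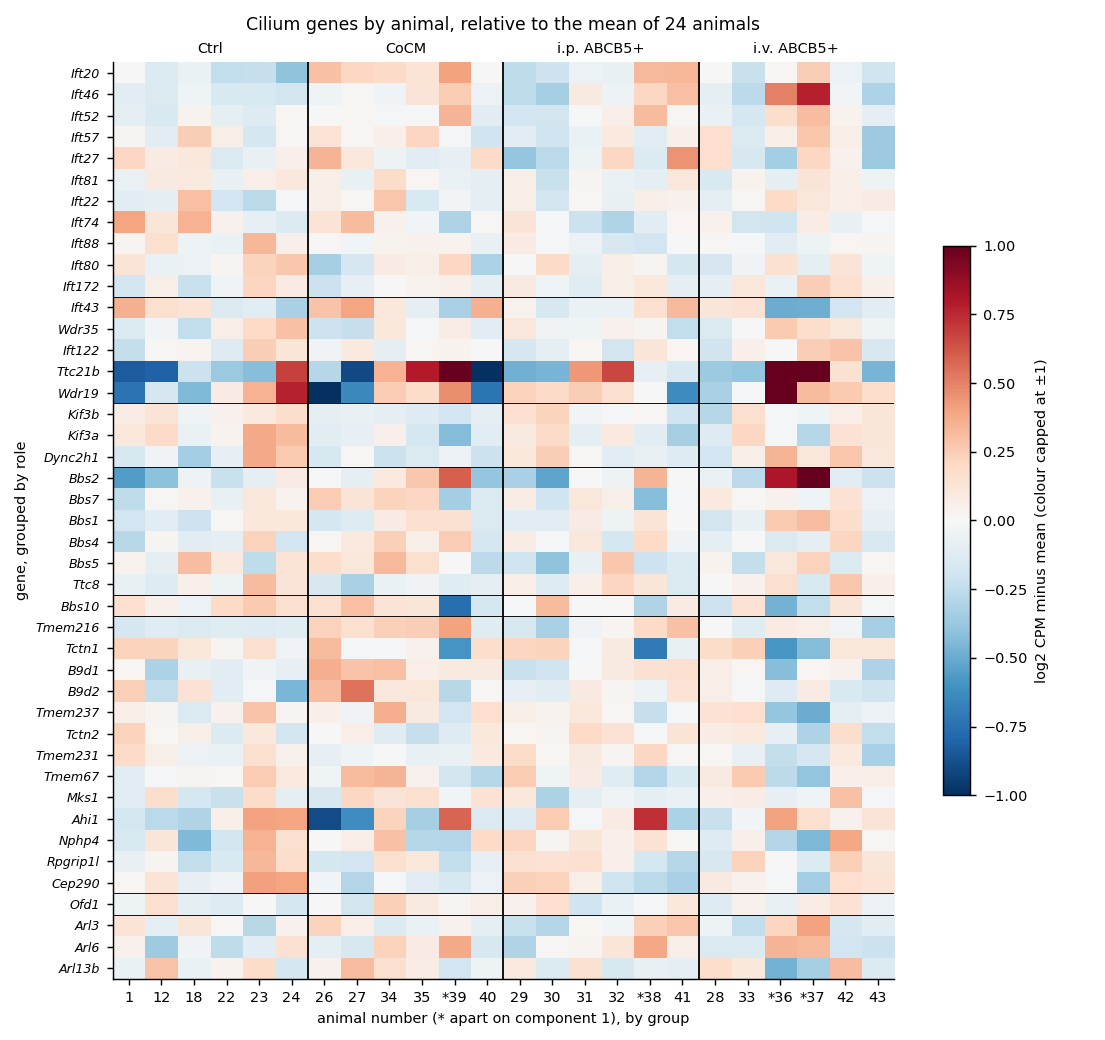
Log2 CPM of the 43 members in each of the 24 animals minus the mean of that gene over all animals, grouped by role (rows) and by group (columns), with the colour capped at ±1 and a star on the 4 animals apart on component 1. Colour is strongest for Ttc21b, Wdr19, Bbs2, Ahi1 and Tctn1, and no group holds a single colour throughout for these genes.

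Other genes of the cilium outside the 51 members gave few differences between the groups, and none passed the adjusted test in any comparison. Of all genes tested, 5.96% passed an unadjusted p-value under 0.05 in each direction in CoCM, and 4.44% were higher in i.v. ABCB5+. Of 28 further genes of cilium assembly and trafficking tested, 2 were higher in CoCM at an unadjusted p-value and none lower. These were Arl2, a GTPase related to Arl3, at 0.33 and Dync2i2, an intermediate chain of dynein-2, at 0.23 on the log2 scale. Of 14 further genes of the transition zone and of nephronophthisis, 1 was higher (Fam149b1, 0.27). Of 19 genes of the centriole and its appendages, 1 was lower in CoCM (Pcm1, the scaffold of the centriolar satellites, −0.26) and 2 were higher in i.v. ABCB5+ (Nek2, 0.63, and Cep78, 0.31). Of 7 genes of cilium disassembly, 0 passed the unadjusted threshold in any comparison. In the 4 animals apart, the assembly and trafficking genes summed to 1602 to 1675 CPM, against 1264 to 1477 CPM in the other 20. For the disassembly genes it was 843 to 895 CPM against 949 to 1178 CPM. For the RFX and Foxj1 group factors described below it was 120 to 144 CPM against 151 to 211 CPM. The sums of the further transition zone and centriole genes overlapped.

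The Hedgehog pathway signals through the primary cilium, where the signal transducer Smo accumulates on activation. Of its 14 genes tested, 1 was higher and 3 were lower in CoCM at an unadjusted p-value, with 5.96% of all genes in each direction. Dhh, a Hedgehog ligand, had 7.34 ± 2.51 CPM in Ctrl and 13.1 ± 1.56 CPM in CoCM (SD, n = 6), with a log2 fold change of 0.84 ± 0.21 and an adjusted p of 0.202 in the same edgeR test. Smo had 32.05 ± 3.13 CPM in Ctrl, 22.7 ± 3.85 CPM in CoCM and 24.6 ± 6.82 CPM in i.v. ABCB5+, with log2 fold changes of −0.49 ± 0.16 and −0.38 ± 0.16 and adjusted p-values of 0.319 and 0.673. In i.v. ABCB5+ the ligand Ihh had a mean of 11.6 ± 15.1 CPM against 4.23 ± 2.07 CPM in Ctrl, so that its SD exceeded its mean.

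Of 8 RFX and Foxj1 group factors tested, which include regulators of ciliary genes, Rfx7 was lower in CoCM, by −0.36 ± 0.15 on the log2 scale (adjusted p = 0.383). Its mean was 44.4 ± 6.65 CPM in Ctrl and 34.7 ± 2.34 CPM in CoCM (SD, n = 6). Ccno, a cyclin of multiciliated cells, was higher, from 0.363 ± 0.121 to 1.51 ± 2.18 CPM, where the SD in CoCM exceeded the mean and the Ctrl level was close to that of 3 counts. The letters GTTGCC were present in the promoters of Ift20 and B9d1, which were higher, and of Kif3a, which was lower, and not matched in those of Tmem216, Kif3b and Cep290.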

How the data were processed

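RNA of the left kidney of 24 rats was sequenced on a BGI instrument. For each animal the authors deposited estimated counts and TPM for 17334 Entrez identifiers. Processing notes of the submitters name Trim Galore 0.6.4, kallisto 0.4.6 and the build rn6, and the annotation and handling of strand are not given in the sources used here. The estimated counts deposited by the authors are not normalized (9304601 to 14125442 per animal), and 86.4% to 87.3% of a column's values are whole. The TPM deposited by the authors are scaled to length and library total. A floor of 3 counts is 0.322 CPM in the smallest library and covers counting error only. Symbols were taken from the RefSeq gene table of GRCr8, which held 17179 of the identifiers. The files hold identifiers and no coordinates, and those printed for promoters are of GRCr8. Testing in the study was done with DESeq2, and its methods list gene models of human origin.

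Estimated counts were rounded, filtered with filterByExpr by group (12778 genes left) and scaled by TMM. The quasi-likelihood F-test of edgeR 4.0.16 in R 4.3.3 was fitted to all 24 animals, with Benjamini-Hochberg adjustment over all genes and a threshold of 0.05. SE is the log2 fold change divided by the square root of F. For single members a two-sided exact permutation test over all divisions of the 12 animals was added, unadjusted. CPM in the text is TMM-scaled. Alternatives were run with DESeq2 1.42.0, limma 3.58.1 and sva 3.50.0. The code was tested on simulated data. Between animals of a group, chi-square per degree of freedom was at least 10.6 over 60 pairs, so no library was counted as a repeat.

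Values by animal are given for up to 6 members per comparison with the smallest unadjusted p under 0.05, and for the members with the highest and lowest median TPM in Ctrl of each role of 3 or more. Up to 2 genes per further list were named by p. Ttc21b, Ahi1, Bbs10, Tctn1, Tmem237, Ift52, Arl6 and Ift46, and the B9-domain genes B9d2 and Mks1, were chosen after their values were seen. The members and all lists were chosen with earlier results of these data known.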

Additional observations from a re-analysis of the deposited data

Results flagged for a closer look

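In groups of 6 animals, 1 animal was marked where its gap to the nearest other, relative to the range of the group, exceeded Dixon's critical value. Of 92 groups examined for the named members, 5 were marked, where chance gives about 4.6. Wdr19 had 12.8 CPM in i.p. ABCB5+ 41, against 19.9 to 23.7 CPM in the other i.p. animals, and 42.8 CPM in i.v. ABCB5+ 36, against 15.9 to 24.9 CPM in the other i.v. animals. Ttc21b, the other IFT-A gene with a wide spread, had 86.1 CPM in Ctrl 24, against 30.1 to 46.3 CPM in the remaining Ctrl animals. Tmem237 had 18.8 CPM in i.p. ABCB5+ 38, against 21.9 to 23.7 CPM. Ift52 had 81.8 CPM in CoCM 39, against 59.98 to 65.5 CPM. Of these animals, i.v. 36, i.p. 38 and CoCM 39 were among the 4 that stood apart on the first component, and Ctrl 24 and i.p. 41 were not.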

How the results depend on the processing

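No paired analysis was possible because no animal number occurs in more than 1 group. Over 9 alternatives, 107 of 124 summary values and 103 of 105 values of single members stayed on the same side of their threshold or near their main value. No member named by its edgeR p-value changed its direction in the comparison it is named for. Ttc21b in i.v. ABCB5+ against Ctrl went from 0.86 to −0.02 without the 4 animals apart. The median over the members, close to 0 throughout, changed sign. With limma on log2(TPM + 0.1) it was −0.09 in CoCM and −0.07 in i.v. ABCB5+, where that of all genes was −0.11 and −0.07, and 0.01 between the routes. With the first surrogate variable it was −0.02 in CoCM and in i.v. ABCB5+. Voom with sample quality weights called 2 members in CoCM instead of 0, Ift20 (log2 fold change 0.36) and Tmem216 (0.32). Counts of members at an unadjusted p under 0.05 are given next with the share of all genes. With voom they were 1 for i.p. ABCB5+ (9.72%), 2 between the routes (6.93%) and 7 over the 4 groups (17.7%), with DESeq2 1 for i.p. ABCB5+ (2.17%) and 6 over the 4 groups (7.02%), and with median ratio size factors 1 for i.p. ABCB5+ (1.63%). For i.v. ABCB5+ the count was 0 when only the groups compared were fitted (3.62%), 0 without the 4 animals apart (1.23%), 0 with the surrogate variable (2.34%) and 1 with TPM (3.16%). Between the routes it was 0 with TPM (1.48%), 0 without the 4 animals (1.13%) and 2 with the surrogate variable (3.93%). Over the 4 groups it was 1 with TPM (2.72%). Adjusted p-values ranged from 0.0303 to 0.478 for Ift20 and from 0.0381 to 0.478 for Tmem216 over the alternatives. Bbs2 in i.v. ABCB5+ ranged from 0.03 to 0.53 on the log2 scale. The cause of these shifts was not tested. The smallest count of a member in any animal was 84, and the part of counting error in the spread was not tested.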
